A study of Drosophila melanogaster and Drosophila persimilis and Drosophila pseudoobscura with 5 samples.

Results

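Genes with a high signal in the Johnston's organ of all 5 sequenced Drosophila species were examined as a set. A gene entered when its signal in the authors' cross-species table, a read number corrected for gene length, was at least 500 in each of the 5 libraries. Cytosolic and mitochondrial ribosomal proteins, odorant-binding proteins, cuticular proteins, cytochrome P450s, glutathione transferases, yolk proteins and the respiratory chain and ATP synthase subunits that carry a family prefix in their symbol were left out. Of the 8180 genes in the table, 138 reached 500 in every library, 83 of them belonged to the families left out, and 55 genes remained, 0.672% of the table. The same 5 values chose the genes, so their levels and their spread between libraries are descriptions, and no test was made on them.

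The study compared the hearing organ of the fly antenna between adults of D. melanogaster, D. simulans and D. yakuba, which belong to the melanogaster species group, and of D. pseudoobscura and D. persimilis, which belong to the obscura group. All flies were raised at 25 degrees Celsius on standard food, and total RNA from Johnston's organ was extracted with a micro-scale kit and made into Illumina libraries, 1 per species. The labels give no strain, sex, adult age in days or number of flies, and they name no treatment. The column headings of the cross-species table add a number to each species name, and "mix" for D. melanogaster only. The labels do not explain these additions. With 1 library per species no difference has a replicate check, species and library cannot be told apart, and "higher" and "lower" describe single libraries. Values listed without species names run from D. melanogaster through D. simulans and D. yakuba to D. pseudoobscura, with D. persimilis last.

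Johnston's organ is an array of stretch-receptive units, each made of ciliated neurons wrapped by support cells, and it senses sound, wind and gravity through movements of the distal antenna. Genes with high RNA levels in nearly every tissue usually serve energy supply, protein synthesis, protein folding and the acidification of vesicles. Antennae also express abundant small secreted proteins and enzymes at the sensory hairs, which bind or break down odorants and other small molecules. The neighbouring antennal segment carries the olfactory hairs, and the first segment holds the muscles that move the antenna.

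The reads counted on genes ranged from 7580214 in D. simulans to 22391819 in D. melanogaster. The deposited values share an upper quartile of 34.3 in every library, but their sums ranged from 630196 in D. melanogaster to 1179370 in D. simulans. Scaling each library to the same sum would shift all genes by 0.54, -0.36, 0.27, 0.09 and -0.33 on the log2 scale, and directions that change under it are named beside the result. Scaling by the median of ratios would shift them by -0.11, 0.01, -0.05, 0.04 and 0.11. The chordotonal organ list, 8 genes of the cell type that makes up Johnston's organ, summed to 112, 18.99, 112, 67.2 and 32.1, with ato at 0 in all libraries. Markers of other cell types also differed. The eye list of 12 genes summed to 144, 7743, 344, 16.8 and 138. The fat body and yolk list of 9 genes summed to 16397, 21033, 6375, 3606 and 1484, most of it from Yp1, Yp2 and to in each library. The haemocyte list of 4 genes summed to 182, 1038, 403, 206 and 130, and the glia list of 10 genes to 3434, 1227, 3227, 2251 and 1235. The part of these cell types in the results below was not tested. In bulk RNA, more cells of a type and more RNA per cell cannot be told apart.

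The 55 genes fell into a few kinds of function. The assignment of genes to functions was made after the members were known. Mitochondrial energy supply held 11 of them, translation 5, antennal and ligand-binding proteins 5, protein folding and turnover 5, glycolysis and phosphate transfer 4, redox and iron metabolism 3, the vacuolar proton pump 3, muscle myosin light chains 2, immune genes 2, glutamine synthetase and a transcription factor 1 each, and tubulin 1. No role is stated here for the remaining 12.

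Some members belong to the families left out but carry other symbols. The rule works on symbols, so the complex III subunits RFeSP, ox and Cyt-c1, the complex IV subunit levy, the complex I subunits NdufA3 and NP15.6, the ATP synthase alpha subunit blw and the ribosomal protein sta stayed in. They are described below beside those families, which share their functions.

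**Figure D1:**
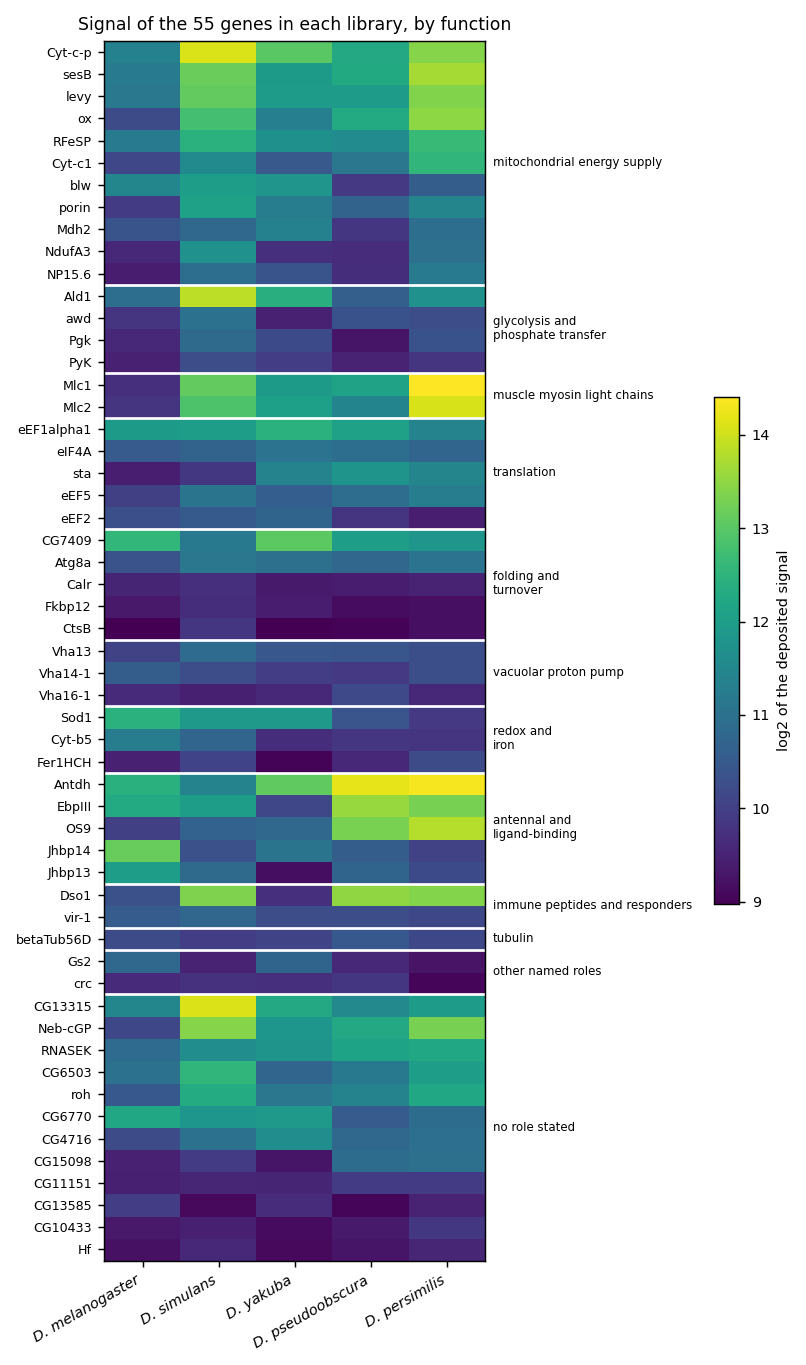
Signal of the 55 genes (rows, grouped by function) in the 5 libraries (columns), drawn as colour on a log2 scale of the deposited signal, with low values dark. All values lie between 501 and 21722. Most mitochondrial rows and the muscle rows are darker in D. melanogaster, while the proton pump rows have about the same colour across libraries.

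The members held a similar share of the summed signal of each table column, 16.6%, 17.8%, 17.2%, 17.8% and 20.6%. The median member had a signal of 1203, 2037, 1690, 1565 and 1980. The lowest-ranked member stood at place 225, 295, 229, 246 and 277 of the 8180 genes. The shares of the larger families left out ranged more widely. The 36 respiratory chain and ATP synthase genes left out held 8.44%, 18.2%, 14.0%, 9.31% and 17.2% of the signal, the 38 ribosomal proteins 9.35%, 13.5%, 12.4%, 14.3% and 14.4%, and the 7 odorant-binding proteins 6.06%, 3.42%, 4.97%, 12.3% and 4.87%.

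**Figure D2:**
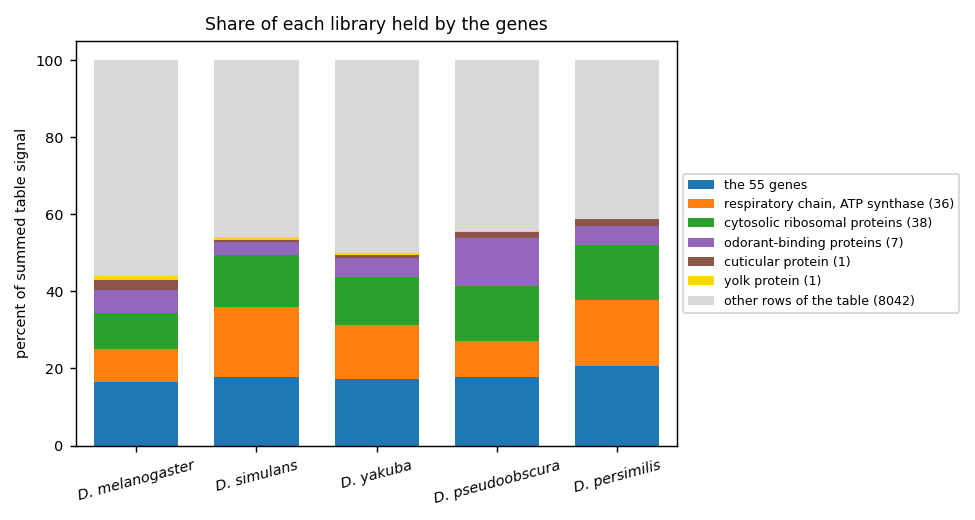
Share of each library's summed table signal (percent, stacked bars) held by the members, by the families left out at the same threshold, and by the remaining genes. The members take 16.6 to 20.6% of every library, while the odorant-binding proteins range from 3.42% in D. simulans to 12.3% in D. pseudoobscura.

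The threshold cut through a continuous range of levels. Just inside it, the cysteine protease cathepsin B (CtsB) had its lowest signal at 501 in D. yakuba, the ferritin heavy chain Fer1HCH at 521 and CG13585 at 526. The D. melanogaster reads of CtsB per exon base correspond to a signal of 481, under the threshold. Just outside it, the cofilin twinstar (tsr) had its lowest signal at 489, the elongation factor subunit eEF1gamma at 482 and the mitochondrial superoxide dismutase Sod2 at 480. Outside the families, 39 genes reached 500 in exactly 4 libraries. D. melanogaster was the missing library for 20 of these, D. yakuba for 10, D. pseudoobscura for 4, D. simulans for 3 and D. persimilis for 2. Under equal sums 37 genes reached it in exactly 4 libraries, and the missing library was D. melanogaster for 9, D. yakuba for 9, D. persimilis for 7, and D. pseudoobscura and D. simulans for 6 each. As deposited, the 20 genes short only in D. melanogaster included the flight muscle genes flightin (fln), myofilin (Mf) and troponin C 4 (TpnC4), and calmodulin (Cam), whose signals were 279, 1227, 1307, 1897 and 1710. The 10 genes short only in D. yakuba included the metallothionein MtnA, at 551, 5803, 173, 1293 and 2933, and the ubiquitin-like protein Sumo, at 501, 631, 458, 1163 and 1365. Of the 39, 4 were listed at 0 in the library where they fell short, 14-3-3zeta in D. simulans and Prx5, CG10570 and CG42486 in D. melanogaster, and such a 0 may also mean that no gene was matched in that species.

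The leading member was a different gene in most libraries. Jhbp14, a protein of the juvenile hormone-binding family by name, led in D. melanogaster, CG13315 in D. simulans, the antennal dehydrogenase Antdh in D. yakuba and D. pseudoobscura, and the myosin light chain Mlc1 in D. persimilis. In D. melanogaster the next places were taken by CG7409, a relative of the small heat shock proteins, by the superoxide dismutase Sod1, by Antdh and by EbpIII, a chemosensory protein first described in the ejaculatory bulb. The D. melanogaster value of EbpIII is 1.94 times its reads per exon base, which correspond to 2598 and would place it outside the leading 5. In D. simulans, Cyt-c-p (cytochrome c), the aldolase Ald1, Neb-cGP and Dso1, a short secreted immune peptide, followed. In D. yakuba they were CG7409, Cyt-c-p, the elongation factor eEF1alpha1 and Ald1. In D. pseudoobscura they were EbpIII, Dso1, the olfactory organ gene OS9 and ox, and in D. persimilis Antdh, Mlc2, OS9 and sesB, the ADP/ATP carrier of the inner mitochondrial membrane.

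Across libraries, 21 of the 55 genes were among the 10 highest somewhere and 0 were so in all 5. In 4 libraries, 4 genes were among the 10 highest: Cyt-c-p, Mlc1, Antdh and sesB. Another 6 genes were so in 3 libraries, 5 in 2 and 6 in 1. At the other end of the order, CtsB was ranked 55th in D. melanogaster, D. yakuba and D. pseudoobscura, 53rd in D. persimilis and 46th in D. simulans. Atg8a, the ubiquitin-like protein that coats autophagosomes, was ranked 25th among the members in each of the 5 libraries, with signals of 1320.2, 2228, 2026, 1739 and 2093. Its D. melanogaster reads per exon base correspond to a signal of 943, which would place it lower in that library.

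The order was most alike between the obscura group species. Spearman's rho over the 55 genes was 0.876 for D. pseudoobscura and D. persimilis, with 8 genes shared among their 10 highest. It was 0.804 for D. simulans and D. persimilis, also with 8 shared, 0.725 for D. simulans and D. yakuba with 7 shared, and 0.624 for D. melanogaster and D. yakuba with 4 shared. The lowest values involved D. melanogaster, 0.521 with D. simulans, 0.514 with D. pseudoobscura and 0.333 with D. persimilis. D. melanogaster and D. simulans shared 1 of their 10 highest. Over the 4922 table genes above 0 in every library, D. melanogaster did not stand apart in this way. Its rho was 0.825 with D. yakuba, 0.771 with D. simulans, 0.731 with D. pseudoobscura and 0.713 with D. persimilis. D. simulans with D. pseudoobscura gave 0.716, and D. pseudoobscura with D. persimilis 0.849. The values over the 55 genes are correlations across genes of single libraries, which all passed the same threshold and are not independent. They describe the order only, and scaling a library leaves them as they are.

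**Figure D3:**
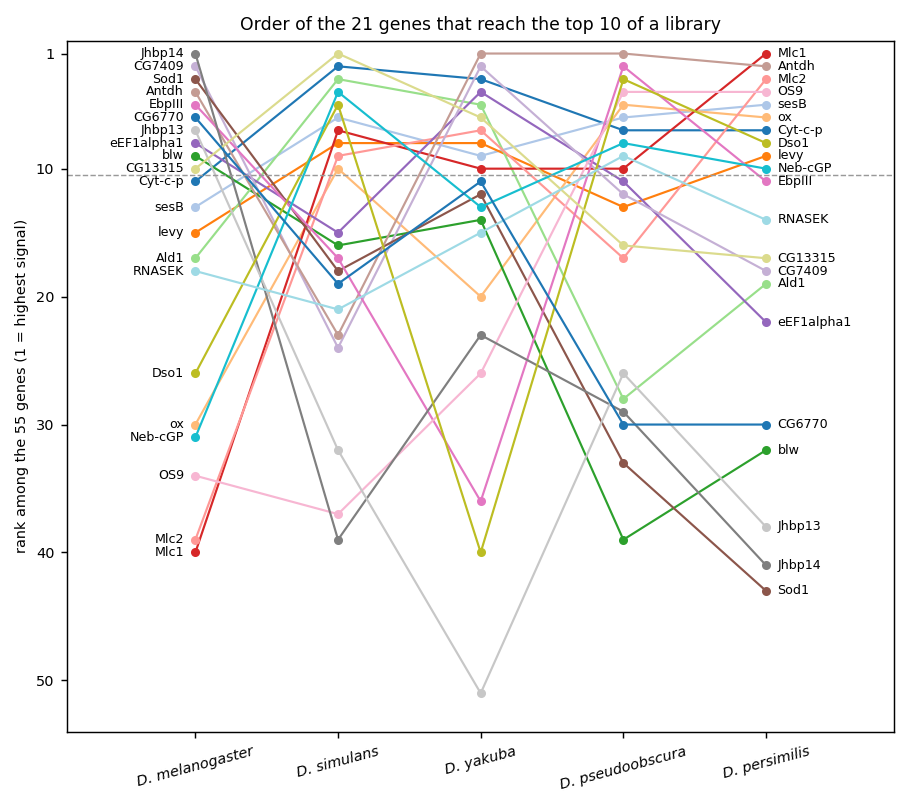
Rank among the 55 members (vertical axis, 1 at the top) in the 5 libraries for the 21 genes that are among the 10 highest of a library. Each gene has 1 coloured line, and the other members are not drawn. Antdh runs from place 23 in D. simulans to place 1 in D. yakuba and D. pseudoobscura, and Jhbp14 from place 1 in D. melanogaster to place 41 in D. persimilis.

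The spread of a member was measured as its highest divided by its lowest signal over the 5 libraries. This ratio had a median of 2.98 over the 55 genes, with quartiles at 1.81 and 5.68, and ran from 1.29 to 25.7. It was at least 2 for 39 members, where 92.1% of the table genes with a mean signal of at least 5 reached 2. It was at least 4 for 21 members, beside 60.9% of the table genes. The median over the 4922 genes above 0 in every library was 5.39. The threshold on the lowest value bears on this ratio and low genes carry more counting error, so nothing is read from the difference. In the families left out, chosen by the same threshold, the median ratio was 3.45 for ribosomal proteins, 4.54 for the respiratory chain and 9.96 for odorant-binding proteins.

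**Figure D4:**
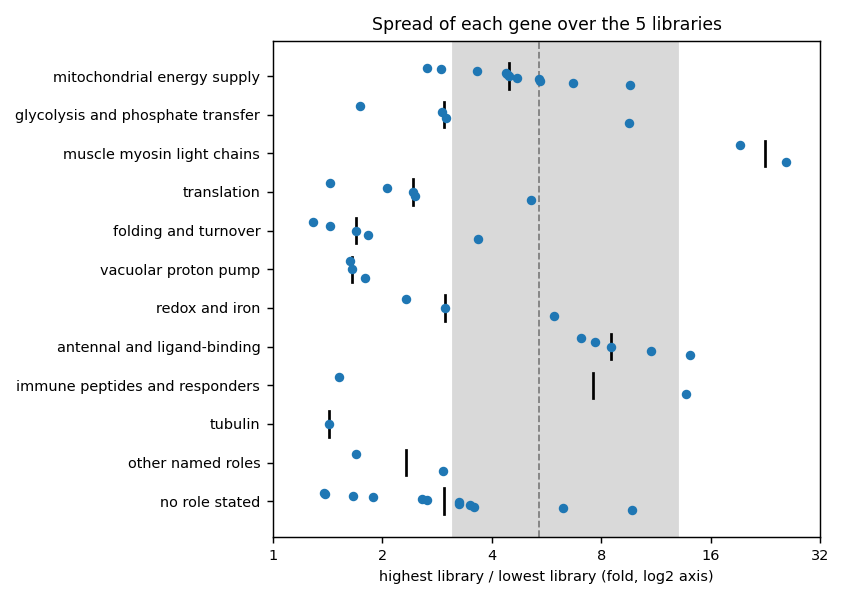
Highest-to-lowest signal ratio over the 5 libraries (log axis) for each member, by function, with black bars at the group medians. The dashed line and grey band mark the median and quartiles of the 4922 table genes above 0 in all libraries. The myosin light chains lie highest at 19.3 and 25.7, and the proton pump subunits lie between 1.63 and 1.80.

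The mitochondrial members were low in D. melanogaster and high in D. simulans and D. persimilis. Cytochrome c (Cyt-c-p), which carries electrons between complexes III and IV, had signals of 2634, 17657, 8283, 4879 and 10911. The ADP/ATP carrier sesB had 2401, 9206, 3910.2, 4946 and 13032, and the complex IV subunit levy had 2282, 8749.5, 4039, 3985 and 10702. For all of these, D. melanogaster was lowest, and the highest library was D. simulans for Cyt-c-p and D. persimilis for sesB and levy.

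Among the complex III subunits, ox had signals of 1187, 6996, 2534, 5017 and 11384, the Rieske iron-sulphur protein RFeSP 2391, 5576, 3339, 3105 and 6337, and Cyt-c1 1114, 3016, 1433, 2218 and 6001. All 3 were highest in D. persimilis and lowest in D. melanogaster, except that RFeSP was lowest in D. pseudoobscura under equal sums, and ox had the widest ratio of the 11 mitochondrial members, 9.59. The complex I subunits NdufA3 and NP15.6 had 765, 3379, 848, 803 and 2025, and 664, 1948, 1339, 824 and 2419.6, respectively. The outer membrane channel porin had 967, 4308, 2449, 1674 and 2787, highest in D. simulans.

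A pair of mitochondrial members had another pattern. The ATP synthase alpha subunit blw had signals of 2844, 4111, 3567, 938 and 1524, and the malate dehydrogenase Mdh2 of the citric acid cycle had 1325, 1776, 2634, 911 and 1953. Both were lowest in D. pseudoobscura, and blw was higher in all 3 melanogaster group libraries than in either obscura group library.

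Taken gene by gene, 9 of the 11 mitochondrial members were lowest in D. melanogaster as deposited, beside 15.9% of the 4922 table genes above 0 in every library. When libraries were scaled to the same sum, 6 were, beside 7.74%. D. simulans exceeded D. melanogaster in 11 of 11, with a median fold of 3.83, but in 9 of 11 with a median fold of 2.05 under equal sums. D. persimilis exceeded its sister species D. pseudoobscura in 11 of 11 under either scaling, with median folds of 2.27 and 1.69. D. persimilis exceeded D. melanogaster in 10 of 11, and in 9 of 11 under equal sums. The same pairwise counts over all table genes are not given here, so these counts describe the 11 genes only. Over all 55 genes as deposited, the median log2 ratio was 0.60 for D. simulans over D. melanogaster. It was 0.27 for D. persimilis over D. pseudoobscura and 0.56 for D. persimilis over D. melanogaster. The median level of the 11 mitochondrial members relative to each gene's own mean was -1.04, 0.76, -0.22, -0.37 and 0.71 on the log2 scale. The 36 respiratory chain genes left out gave -1.10, 0.87, -0.18, -0.47 and 0.83. Of the 38 ribosomal proteins left out, 33 were lowest in D. melanogaster as deposited. Over table genes, Spearman's rho of exon length with the ratio to D. melanogaster was -0.351 in D. simulans and -0.397 in D. persimilis. It was -0.240 in D. pseudoobscura and -0.025 in D. yakuba. Over the 55 genes it was -0.136 in D. simulans and -0.186 in D. persimilis. The part of length in the mitochondrial differences was not tested.

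The muscle members were also lowest in D. melanogaster. The myosin light chains Mlc1 and Mlc2, structural parts of muscle myosin, had signals of 844, 8793, 3896, 4390.2 and 21722, and of 896, 7547, 4191, 2726 and 17256. Their ratios of 25.7 and 19.3 were the widest among the members. Both were highest in D. persimilis, and neither extreme changed under either other scaling. The D. melanogaster reads of Mlc1 per exon base correspond to a signal of 1121, above its value of 844, which would narrow its ratio. The 6 other muscle genes of the list in the table summed to 762, 15427, 4641, 2086 and 3813, lowest in D. melanogaster but highest in D. simulans. Most of the D. simulans sum came from Mf, at 14329, the only one of them highest there. Act57B, wupA and up were highest in D. persimilis, like the members, TpnC41C in D. pseudoobscura and TpnC73F in D. yakuba. The part of muscle in the mitochondrial differences was not tested.

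In glycolysis and phosphate transfer, all 4 members were highest in D. simulans, beside 22.7% of the 4922 table genes above 0 in every library. Under equal sums 3 were so, beside 10.1%. The aldolase Ald1, which splits fructose bisphosphate, had signals of 1962, 14896, 5387, 1565 and 3368, at least 2-fold above each other library in D. simulans, though not under equal sums. The phosphoglycerate kinase Pgk had 771, 1849, 1169.7, 619.8 and 1293, and the pyruvate kinase PyK, which forms pyruvate and ATP, had 706, 1222, 992, 717 and 885. The nucleoside diphosphate kinase awd, which passes phosphate between nucleotides, had 900.4, 2071, 711, 1291 and 1214. The glycolysis list held 8 genes of the table, of which 3 met the rule. The enolase Eno, at 772, 2953, 2960, 372 and 766, and the triose phosphate isomerase Tpi, at 642, 1759, 615, 450 and 928, fell short only in D. pseudoobscura.

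**Figure D5:**
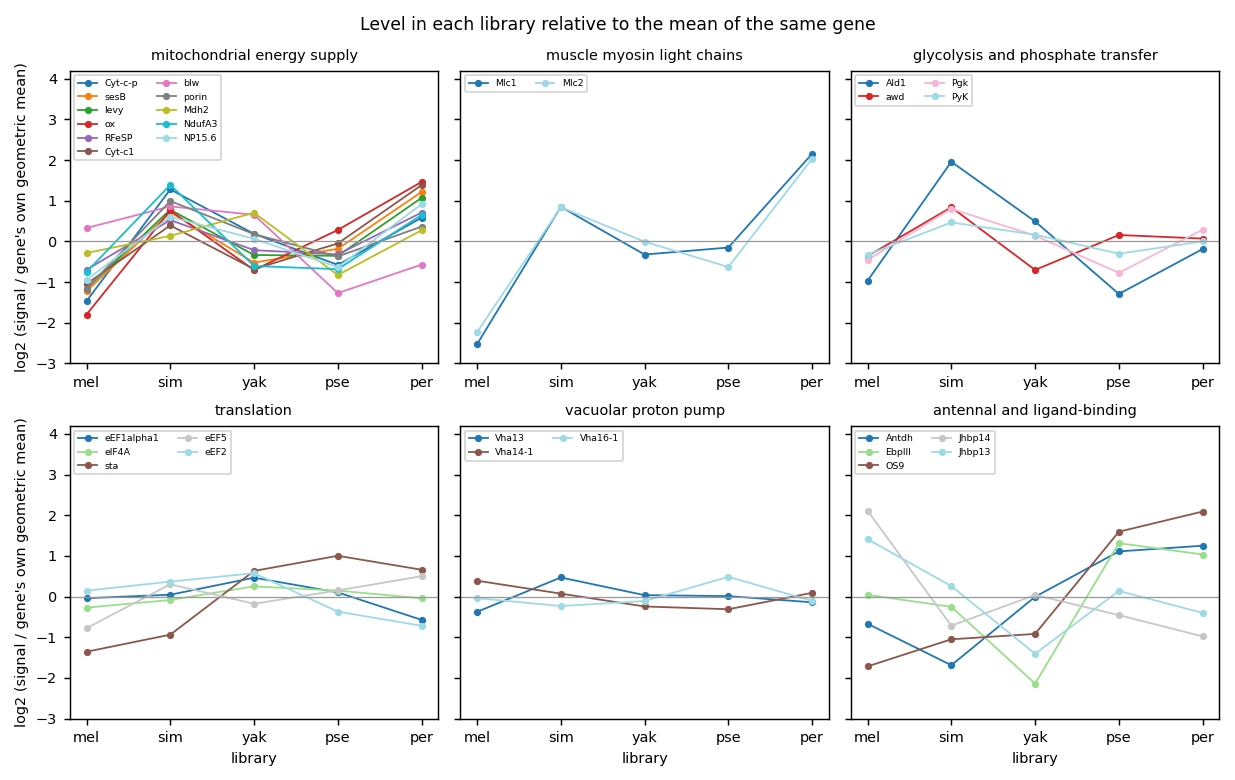
Level of each member in each library relative to its own geometric mean (log2 scale) for 6 functions; mel, sim, yak, pse and per are the first letters of the species names. The mitochondrial and muscle panels dip in D. melanogaster, the proton pump panel stays flat on the deposited scaling, and the antennal panel splits into genes high in the obscura group and genes high in D. melanogaster.

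The antennal and ligand-binding members fell into genes high in the obscura group and genes high in D. melanogaster. Antdh (X:11168030-11169058 in BDGP6), a short-chain dehydrogenase of the antenna, had signals of 5474, 2700.2, 8669.6, 18797 and 20709. OS9, a gene named for its expression in olfactory organs, had 1026, 1628, 1785, 10191 and 14377. EbpIII had 5040.3, 4108, 1109.6, 12159 and 10017. All 3 were highest in the obscura group libraries, D. persimilis for Antdh and OS9 and D. pseudoobscura for EbpIII. Under equal sums D. pseudoobscura was highest for Antdh too. EbpIII was lowest in D. yakuba.

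A gap of at least 2-fold, with both obscura group libraries above the other 3, was found for 2 members, Antdh and OS9, beside 4.62% of the table genes. Antdh no longer met it under equal sums, and OS9 did. The perireceptor list held 12 genes of the table, of which Antdh, OS9 and EbpIII were members. The 9 other genes on it summed to 836, 1103, 768, 685 and 992, lowest in D. pseudoobscura, and 8 of them stayed under 500 in all libraries. The odorant-binding proteins, which were left out, held the largest share of signal in D. pseudoobscura.

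Jhbp14 and Jhbp13 were high in D. melanogaster. Jhbp14 had signals of 9042, 1272, 2147, 1523 and 1059.9, and Jhbp13 4090, 1837, 580.3, 1693 and 1164. These were the 2 members at least 2-fold above each other library in D. melanogaster, beside 3.39% of the table genes, and both kept that gap under each scaling. On D. melanogaster reads per exon base, Jhbp13 corresponds to a signal of 3506, less than 2-fold above D. simulans. Its exons overlap those of an antisense RNA gene. They lie next to each other on chromosome arm 2L, at 13236494-13239297 and 13239989-13241773 in BDGP6, with 691 bases between them. As neighbours of like name, they cannot be assumed to have been matched to separate copies in every species. In D. yakuba, Jhbp13 was at its lowest, 580, while Jhbp14 was at its second-highest level.

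OS9 also has a member as its neighbour. Hf (2L:19966727-19967685) lies 216 bases from OS9 (2L:19965664-19966510) on the same strand. Its signals were 589, 759.6, 551, 622 and 749, with a ratio of 1.38, while that of OS9 was 14.0. The exons of OS9 overlap those of CG10680, so that reads of these 2 genes may have been split or left out in counting.

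Translation genes had a median ratio of 2.43 as deposited and 3.12 under equal sums. The elongation factor eEF1alpha1, which brings aminoacyl-tRNA to the ribosome, had signals of 3931, 4169, 5576, 4339 and 2716. The RNA helicase eIF4A, which unwinds mRNA at initiation, had 1469.6, 1674, 2112, 1964 and 1724, a ratio of 1.44. The translocation factor eEF2 had 1253, 1463, 1688, 877 and 689, and eEF5, the factor formerly called eIF-5A, had 1017, 2148, 1541, 1934 and 2467. The first 3 of these were highest in D. yakuba, and eEF5 was highest in D. persimilis, or in D. pseudoobscura under equal sums.

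The ribosomal protein sta, the small subunit protein SA, had 685, 916, 2716, 3516 and 2772. Both D. melanogaster and D. simulans were below 1000, and the other 3 libraries were above 2700. In the ribosomal family left out, the median level relative to each gene's own mean was -1.01, 0.46, -0.20, 0.14 and 0.51 on the log2 scale. Of the 13 translation factors of the list in the table, 4 were members, and eEF1gamma, Rack1 and eIF1 fell short in 1 library each.

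The vacuolar proton pump acidifies vesicles and, in sensory epithelia, energises transport across the cell membrane. Its 3 members had narrow ratios, 1.63 to 1.80. Vha13 had signals of 1049, 1885, 1395, 1371 and 1235, Vha14-1 1533, 1229.5, 988, 942 and 1246, and the proteolipid ring subunit Vha16-1 800.3, 699, 762, 1150.4 and 764. The 9 pump genes in the table that were not members summed to 3243, 2532, 3000.1, 2594 and 2744, and their lowest values had a median of 208. Under equal sums the median ratio of the 3 members was 2.26, so the narrow range depends on the scaling.

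The median ratio of the 5 folding and turnover members was 1.69. Calr (calreticulin), a calcium-binding chaperone of the endoplasmic reticulum, had the narrowest ratio of all members as deposited, 1.29, at 741, 842, 654, 677 and 722. The immunophilin Fkbp12 had 653, 819.8, 664, 570.3 and 585, and CtsB had 504, 915, 501, 523 and 587. CG7409 was the exception in this group, at 6057, 2304, 8441, 4064 and 3582, highest in D. yakuba and lowest in D. simulans. Beside Calr, the members with a ratio under 1.5 were Hf, CG11151, betaTub56D, eIF4A and Fkbp12. This evenness depends on the scaling: under equal sums the members under 1.5 were Hf, Atg8a and eEF5, and the ratio was 1.88 for Calr and 2.25 for betaTub56D. The beta-tubulin betaTub56D, a subunit of microtubules, had 1189.6, 989, 1089, 1414 and 1137.

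Among redox and iron genes, Sod1, the cytosolic copper-zinc superoxide dismutase, had signals of 5598, 3858, 3796, 1356 and 943. It was the 1 member at least 2-fold lower in both obscura group libraries than in each of the others, beside 5.82% of the table genes. Its mitochondrial counterpart Sod2, just outside the threshold, had 480, 704, 908, 612 and 1486, so the obscura group libraries were not jointly lower there. Cyt-b5, a haem protein that passes electrons to desaturases and P450 enzymes, had 2450.1, 1720.4, 825, 915 and 881, highest in D. melanogaster. The iron storage protein Fer1HCH had 708, 1075, 521, 764 and 1207, and its exons overlap those of its partner chain Fer2LCH.

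Of the immune genes, Dso1 had signals of 1268, 10488, 848, 11594 and 10819. They were above 10000 in D. simulans, D. pseudoobscura and D. persimilis and at or below 1268 in D. melanogaster and D. yakuba. Dso1 was the shortest protein of the set, 42 residues, and its D. melanogaster table value was 1.80 times its own count per exon base on the same scale. The virus-induced gene vir-1 had 1500.5, 1733, 1217, 1227 and 1138, without such a split. Of 8 secreted peptides of the list in the table, Dso1 was the only member, and the antimicrobial peptide metchnikowin (Mtk), at 900, 2703, 79.4, 344 and 28.3, did not have its pattern.

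The glutamine synthetase Gs2, which glia use to convert glutamate, had signals of 1802, 731, 1689.8, 778 and 613. The D. melanogaster and D. yakuba libraries were the highest and the other 3 were below 800. The 9 other genes of the glia list summed to 1632, 496, 1537, 1474 and 622, most of it from nrv2, so that D. pseudoobscura was high there and low for Gs2. The transcription factor crc, the fly ATF4 of the stress response, had 789.9, 853, 834, 906 and 534 and was the lowest-ranked member in D. persimilis.

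Several of the 12 members with no stated role ranked high. CG13315, a protein of 69 residues, had 2841, 17832, 4854, 2969.9 and 3962 and was, with Ald1, 1 of the 2 members at least 2-fold above each other library in D. simulans, beside 5.58% of the table genes. Neb-cGP, of 48 residues, had 1130.4, 10979.5, 3647, 4858 and 10029, lowest in D. melanogaster. CG6770 had 4823, 3649.7, 3818, 1482 and 1911, higher in all 3 melanogaster group libraries. CG15098 had 712, 981, 619.5, 1891 and 2008, higher in both obscura group libraries.

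RNASEK, a ribonuclease kappa by name, had 1873, 3157, 3501, 4455 and 4828. The signals of CG6503 were 2066, 6003, 1721, 2305 and 4153, those of roh 1413, 5058, 2233, 2689 and 4752, and those of CG4716 1203, 2037, 3193, 1790.2 and 1980.5. CG6503 and roh were highest in D. simulans and next highest in D. persimilis, and CG4716 was highest in D. yakuba. CG11151 had 696, 752, 736, 966 and 958, CG10433 649, 699, 557, 658 and 927 and CG13585 991, 547, 806, 526 and 731, all with ratios under 2 as deposited. The ratio of CG13585 was 3.39 under equal sums. The D. melanogaster reads of CG10433 per exon base correspond to a signal of 341, under the threshold, as was also the case for CtsB.

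Some members departed in a single library. D. melanogaster was at least 2-fold below each other library for 4 members, Mlc1, Neb-cGP, Mlc2 and ox, beside 5.44% of the table genes, and ox lost that gap under equal sums. D. yakuba was so for 2 members, EbpIII and Jhbp13, beside 3.85%, and Jhbp13 lost it under equal sums. D. simulans was so for 1, Antdh, beside 9.47%, which was lost under scaling by the median of ratios. D. persimilis was at least 2-fold above each other library for 2 members, Mlc1 and Mlc2, beside 3.51%. No member was so far above in D. yakuba, beside 2.01%, or in D. pseudoobscura, beside 2.69%, and none so far below in D. pseudoobscura, beside 6.32%, or in D. persimilis, beside 7.93%. The rule used these values, so the counts are given without a reading.

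The count of extremes depended on the scaling. As deposited, 24 of the 55 genes had their lowest value in D. melanogaster, beside 15.9% of the 4922 genes above 0 in every library, and 19 their highest in D. simulans, beside 22.7%. Under equal sums, 11 were lowest in D. melanogaster, beside 7.74%, and 17 highest, beside 40.6%. In D. simulans, 13 were then lowest, beside 31.9%, and 10 highest, beside 10.1%. Members were lowest in D. melanogaster more often than the table genes in both settings, at 43.6% of the members as deposited. The number that were so changed with the scaling, and the rule used these values. Whether D. melanogaster was low over the set as a whole therefore cannot be stated from these libraries.

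Gene position was not used by the rule, while exon length and reads enter it through the signal, so that the values on length and reads are descriptions. The members were short genes. The median exon length was 1104 bases, from 331 to 3809, beside 1867 for the 8126 table genes with an annotation, and the median protein length was 186 residues beside 418. Proteins under 150 residues made up 36.4% of the members and 9.03% of the table. The signal is a read number per length, so a short gene reaches 500 with fewer reads than a long one. The members lay on all large chromosome arms, 13 on 2L, 18 on 2R, 4 on 3L, 11 on 3R and 9 on X. The 2R share was 32.7% beside 22.3% of the table, and the 3L share 7.27% beside 17.0%.

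In D. melanogaster the raw reads could be matched by identifier for 49 of the 55 genes. They ran from 5284 for NdufA3 to 157405 for Jhbp14, and came to 1827907 reads, 8.16% of the library. The widest 95% exact Poisson interval reached 2.71% to either side, which covers counting error only and holds for D. melanogaster alone. Of the 100 genes with most reads in that library, 22 were among these 49 members, and the members without matched reads could not be counted. For 30 of the 49 the table value lay within 5% of the count per exon base on the same scale, and for 4 it exceeded it by more than 1.5 times, 1.94 times for EbpIII, 1.80 for Dso1, 2.16 for RNASEK and 1.91 for CG10433. The exons of 20 members overlap another gene in the annotation, among them sesB with its paralogue Ant2, ox with mRpL18 and levy with pita, and their levels are uncertain to that extent.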

How the data were processed

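RNA sequencing of Johnston's organ gave 1 library for each of 5 species. Per the submitters' processing notes, TopHat2 2.0.3 and HTSeq were used; the sources used here do not say what each did, how strand and reads with several matches were handled, or how genes were matched between species. Per the labels, the annotation was release 5.46 in D. melanogaster, 2.30 in D. pseudoobscura, 1.4 in D. simulans, and 1.3 in both D. yakuba and D. persimilis. The deposited counts give raw reads for each gene of the species' own annotation, and their totals were 22391819 in D. melanogaster, 13916387 in D. yakuba, 7580214 in D. simulans, 12908479 in D. pseudoobscura and 9236301 in D. persimilis. The deposited signal comes from the authors' table of 8180 genes, named by D. melanogaster symbol, and its unit is not described in the labels. Its 75th percentile was 34.3 in every library, and for 76.8% of 5894 genes with a D. melanogaster count above 20 it lay within 5% of count per exon base times 1 common factor, so it was read as reads per length scaled to the same upper quartile. The read numbers of the other species could not be tied to the symbols, so depth behind their values is unknown.

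Signals were used as deposited. Table symbols were matched to the BDGP6 annotation by current symbol (6465 genes) or older symbol (1622). Where an older symbol belonged to several genes, the one whose D. melanogaster count per exon base lay within 1.25-fold of the signal was taken (54 genes, among them Ald1, Sod1 and Calr), and 39 stayed unmatched or ambiguous. BDGP6 is a later assembly than that of release 5.46, and supplied exon lengths, overlaps and coordinates by gene identifier. The members and gene lists were chosen with earlier results of these data known, symbols in the lists were corrected and the functions of members assigned after the tables were read. Genes named were the 20 with the highest mean level, the leading 5 of each library, the 5 widest and 5 narrowest, those with a 2-fold gap, those at the threshold and those on a list; the other members were named because they complete the set.

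A fold or gap was counted for members and, as a background, for the 4982 table genes with a mean signal of at least 5. No test was run, since each species has 1 library. D. melanogaster counts carry 95% exact Poisson intervals. The counting of calls was tested on simulated data. Alternatives were the threshold, 2 scalings, the fold, the filter on low values, the matching of symbols and leaving out each library. Sequences of the members were not used here. Computation used Python 3.11.15 with pandas 2.3.3, numpy 2.4.6 and scipy 1.17.1, and figures used matplotlib 3.10.9.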

Additional observations from a re-analysis of the deposited data

How the results depend on the processing

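No paired analysis was possible because each species has 1 library, so the groups share fewer than 2 replicate numbers. The number of genes meeting the rule was 142 at a threshold of 250 and 25 at 1000. It was 62 under equal sums, with 50 of the 55 among them, 55 under scaling by the median of ratios, with 54 shared, and 58 when older symbols held by several genes were left unresolved, an alternative added after seeing the data. It ranged from 57 to 75 without 1 library, the highest being without D. melanogaster. The median ratio was 2.71 under equal sums, 3.04 under the median of ratios and 2.58 to 2.93 without 1 library, and was counted as moved only past 1.5 times, since no replicates exist. Shares within a library cannot change when that library is rescaled.

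When 1 library was left out, members at least 4-fold apart ranged from 13, without D. melanogaster, to 20, and those at least 2-fold apart from 36 to 38. They were 19 and 40 under equal sums, and 22 and 38 under the median of ratios. Under equal sums, 1 member was higher and 2 were lower in the obscura group, 1 was above each other library in D. simulans, 1 above and 1 below in D. yakuba. Under the median of ratios, 0 were below in D. simulans. With a fold of 1.5 in place of 2, the obscura group gap was met upwards by 4 and downwards by 3, 12 were below in D. melanogaster, 7 above and 2 below in D. simulans, 1 above in D. yakuba, 1 below in D. pseudoobscura and 4 above in D. persimilis. Without 1 library, 3 to 5 were higher in the obscura group and 1 to 3 lower; without D. pseudoobscura or D. persimilis these rest on 1 obscura group library. The cause of these changes was not tested.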

Other observations

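The cross-species table leaves some strongly read genes out of any such set. In D. melanogaster, 322 genes had reads per exon base equal to a signal of 500 or more. Of these, 198 were matched to the table and 124 were not matched to a row of it, among them CG8369 with 529050 reads, the antennal gene a10 with 82937 and the arginine kinase Argk1 with 282703. Their levels in the other species were not analysed here.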
